A study of Mus musculus with 4 samples.

Results

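The 10 genes described here belong to the Notch pathway: the receptors Notch1, Notch2, Notch3 and Notch4, the ligands Jag1, Jag2 and Dll4, and the nuclear repressors Hey1, Hey2 and Hes1. They were chosen by name, with earlier results of these data known. Every probe set that the platform annotation gives to a single one of these genes was read. This gave 17 probe sets of 22626 on the array that are not controls, with at least 1 for each gene. Of the 17, 10 probe sets of 8 genes averaged 100 or more scaled units across the 4 arrays and entered the test. The other 7, among them all probe sets of Jag1 and Dll4, are given by their values only.

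The tissues were the atrioventricular (AV) junction and, as its reference, the ventricular region, microdissected from wild-type C57BL/6 mouse hearts at embryonic days 10.5 to 11.0. Each region was pooled from about 80 hearts, its RNA (230 ng for the AV junction and 250 ng for the ventricular region) was amplified, and it was read on 2 Affymetrix MOE430A arrays, named 1a and 1b. The labels do not say whether the arrays of a region carry separate RNA, so p-values measure the spread between these arrays, which may be technical. The stated purpose of the comparison was to find genes needed for the AV cushions.

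Notch receptors sit in the cell membrane and bind Jagged or Delta ligands on a neighbouring cell. Binding leads to cleavage of the receptor, first by an ADAM protease and then by gamma-secretase, and the freed intracellular domain joins the DNA-binding protein Rbpj and a Mastermind co-activator to switch on genes of the Hes and Hey families, which encode basic helix-loop-helix repressors. In the embryonic mouse heart, endocardial Notch1 takes part in the change of endocardium into cushion mesenchyme, while Hey1 and Hey2 are known as repressors of the AV canal genes Bmp2 and Tbx2 in atrial and ventricular muscle.

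Intensities below are on a linear scale on which each array has a trimmed mean of 500, and log2 differences are AV junction minus ventricular region after adding 50 to each intensity. A probe set passed where limma's p-value, adjusted after Benjamini and Hochberg over all 13403 probe sets tested, was 0.05 or less. Among control probe sets for genes of the bacterium Bacillus, the brightest read 52.6 to 58.6 on the AV arrays and 97.9 to 104 on the ventricular arrays. It is used here as the level of background, since mouse RNA should not bind it. The 3′ to 5′ intensity ratio lay between 16.6 and 23.4 for actin and between 15.0 and 18.4 for Gapdh. For both transcripts the 3′ probe set thus read far brighter than the 5′ one on every array. Markers of the labelled tissues separated the regions. Of 7 cushion mesenchyme genes tested 6 were higher in the AV junction, with a summed intensity of 5817 to 7532 on AV arrays against 1033 to 1238 on ventricular arrays, and of 6 ventricular muscle genes tested all 6 were lower, at 25223 to 26475 on AV arrays against 77227 to 81051. Of 6 atrial genes tested 5 were higher, but the summed intensities overlapped (41793 to 44840.3 on AV arrays against 35713 to 42793). Myl4, the brightest, did not pass on its bright probe set (log2 difference −0.13, limma, adjusted p = 0.482). It was lower on its much dimmer one (log2 difference −0.85, limma, adjusted p = 0.0116). Of 9 general heart muscle genes tested 5 were lower and 0 higher (90268 to 91289 against 117201 to 125254), while of 5 AV canal muscle genes 4 were higher (3099 to 3369 against 537 to 675). Of 7 erythroid genes tested 5 were lower (39407 to 40847 against 70627 to 78144), and of 4 hepatic genes tested 3 were higher (6878 to 7309 against 454 to 455). The part of these cells in the results below was not tested. In pooled tissue, fewer cells of a type and less RNA per cell cannot be told apart.

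Of the 10 Notch probe sets tested, 2 were higher in the AV junction, those of Hey1 and of Notch2, and 0 were lower. Over all probe sets tested, 7.24% were higher and 6.58% lower, 13.8% in all. With these split into 5 bins of equal size by mean intensity, Hey1 and this Notch2 probe set lay in the same bin. In that bin 11.8% were higher and 7.72% lower. With each array scaled to its median in place of its trimmed mean, 1714 probe sets were higher and 459 lower, 78.9% of calls higher against 52.4%, and the same 2 Notch probe sets passed. Counted without adjustment, 7 of the 10 had a limma p under 0.05, against 31.2% of all probe sets tested. Of these 4 had a positive difference (Hey1, and 1 probe set each of Notch1, Notch2 and Notch3), against 14.4% of all, and 3 a negative one (Hey2, and the dimmer probe sets of Notch1 and Notch2), against 16.8%. The arrays of the regions did not overlap for 9 of the 10 probe sets, against 61.2% of all probe sets tested. In 4 of the 9 the AV arrays were above, against 26.1% of all, and in 5 they were below, against 35.1%. The median log2 difference was −0.25 over the 10 and −0.07 over all.

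**Figure D1:**
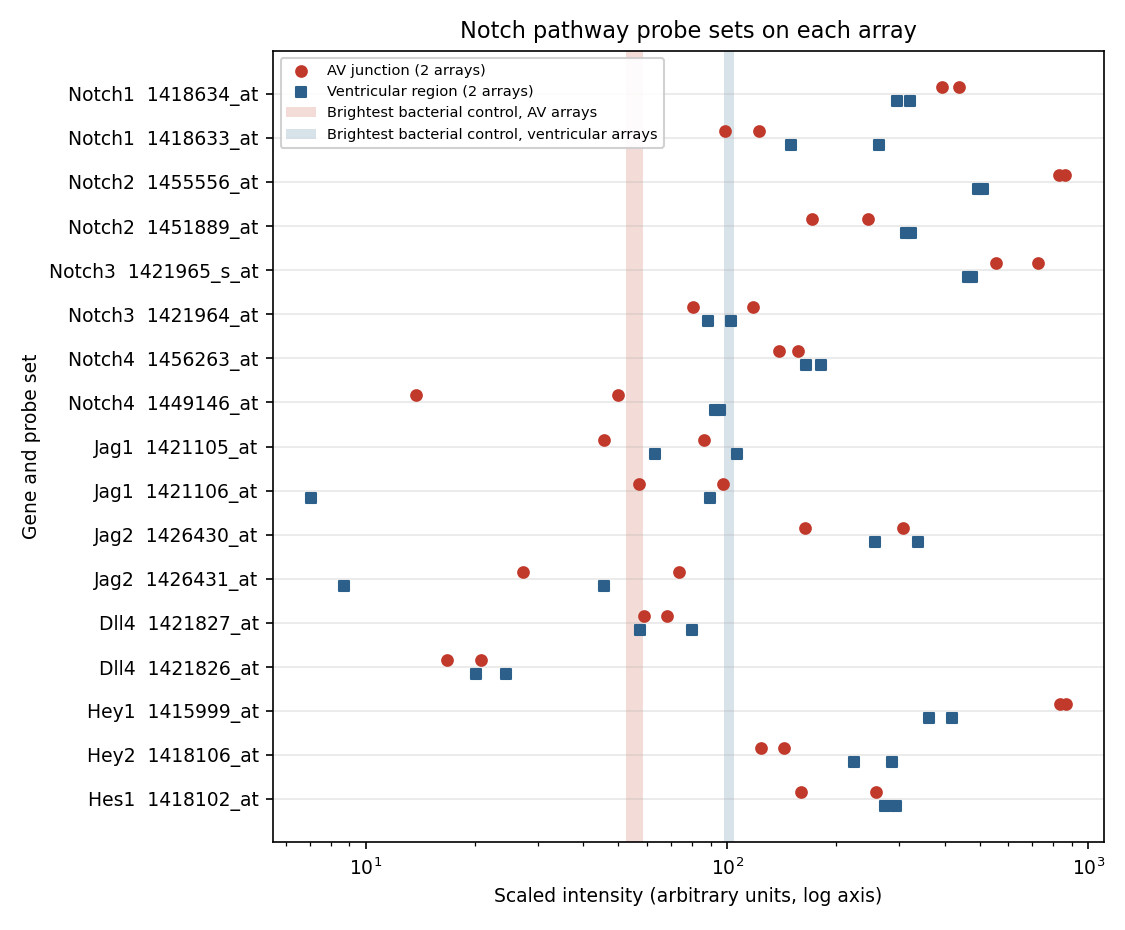
Scaled intensity (log axis) of each of the 17 Notch probe sets on the 2 AV junction arrays (circles) and the 2 ventricular arrays (squares). Bands mark the range of the brightest Bacillus control (bacterial control in the key) on the arrays of each region. Hey1 and the brighter Notch2 probe set stand to the right in the AV junction, Hey2 to the left, and most readings of Jag1 and Dll4 lie near or under the bands.

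The effectors did not move as a group. Hey1 was the only one of the 3 that passed, and it was higher in the AV junction, while the values of Hey2 and Hes1 were lower there. Hey1, a repressor of atrial and other cardiac cells downstream of Notch, read 833 and 866 on the AV arrays, against 418 and 362 on the ventricular arrays. Both AV arrays lay well above both ventricular arrays, with means of 849.7 ± 23.1 and 389.97 ± 40.2 (SD, n = 2 arrays each). The fitted difference was 2.05-fold, a log2 difference of 1.03 with an SE of 0.14 and a 95% confidence interval of 0.72 to 1.35 (limma, adjusted p = 0.00418). It passed under every alternative tried, with log2 differences from 0.83 to 1.19 and adjusted p-values from 0.000785 to 0.0293.

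Hey2, the related repressor of ventricular muscle, read 143 and 124 on the AV arrays, against 286 and 224 on the ventricular arrays. All 4 arrays were above background and those of the regions did not overlap. Its log2 difference was −0.73 with an SE of 0.21 (95% confidence interval −1.22 to −0.24) and did not pass (limma, adjusted p = 0.0604). When single arrays were dropped the adjusted p ran from 0.107 to 0.251. The ventricular and general heart muscle markers were lower on the same arrays and those of AV canal muscle higher, as given above, and their part in the Hey2 values was not tested.

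Hes1, which serves Notch signalling in many tissues, read 160.2 and 258 in the AV junction, against 294 and 273 in the ventricular region. The first AV array stood apart from the other 3, and the log2 difference of −0.39 did not pass (SE 0.22, limma, adjusted p = 0.274). Leaving out AV array 1a gave −0.11, and leaving out AV array 1b gave −0.66.

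The promoter of Hey2 is shown because Hey genes are direct Notch targets and because, of the 8 members with a promoter in the RefSeq table, it alone held the core of the Rbpj site. The other effectors, Hey1 and Hes1, had no promoter there, so Hey2 is set only against receptors and ligands. The sequence covers 250 bases before the start of the gene and the first 30 bases from it, at chr10:30842754-30843033 of GRCm38.p6 on the minus strand. Capitals mark the letters TGGGAA, or TTCCCA where the match is on the opposite strand.
Hey2: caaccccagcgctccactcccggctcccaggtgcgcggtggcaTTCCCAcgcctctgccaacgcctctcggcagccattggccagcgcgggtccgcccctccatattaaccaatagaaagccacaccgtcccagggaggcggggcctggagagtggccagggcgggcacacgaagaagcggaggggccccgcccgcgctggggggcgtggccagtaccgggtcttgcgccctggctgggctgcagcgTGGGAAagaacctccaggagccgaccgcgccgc
One match ran from base −207 to −202 and the other from −3 to 3, counted from the start of the gene with no base 0. Both also fit the longer form GTGGGAA, of which TGGGAA is a part. Over all 32851 windows of 300 bases in the table, 25.6% held TGGGAA on either strand and 3.79% held it 2 or more times, and for GTGGGAA these shares were 6.38% and 0.256%. The other 7 members with a promoter (Notch1, Notch2, Notch3, Notch4, Jag1, Jag2 and Dll4) held neither in their 300 bases. The E-box CACGTG, a site bound by Hey proteins, was in 0 of the 8 and in 7.15% of all windows. The N-box CACNAG, a site bound by Hes proteins, was in 4 of the 8 (Notch1 with 3 matches, Notch3 with 2, Notch2 and Dll4 with 1 each) and in 42.5% of all windows.

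Among the receptors, Notch2 was higher in the AV junction on 1 of its 2 probe sets, and no other receptor passed. Notch2, a receptor of several mesenchymal and vascular cell types, read 859.5 and 829 on the AV arrays with probe set 1455556_at, against 512 and 496 on the ventricular arrays. The regions were clearly apart, and the arrays of each agreed within a narrow range (844 ± 21.7 and 504 ± 11.3, SD, n = 2 each). The log2 difference was 0.69 with an SE of 0.12, a 1.62-fold difference (limma, adjusted p = 0.0127). The adjusted p was 0.0549 when AV array 1a was dropped, and 0.0565 or 0.0629 when ventricular array 1a or its partner 1b was, with log2 differences between 0.67 and 0.71.

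The second Notch2 probe set, 1451889_at, ran the other way. It read 172 and 245 in the AV junction, against 313 and 323 in the ventricular region, also with no overlap. Its log2 difference of −0.52 did not pass (SE 0.20, limma, adjusted p = 0.122), so the 2 probe sets of Notch2 had opposite signs and their 95% confidence intervals, 0.40 to 0.98 and −0.99 to −0.06, did not meet.

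Notch1, the receptor of endocardium and endothelium, showed the same split between probe sets. With 1418634_at it read 439 and 393 in the AV junction, against 322 and 296 in the ventricular region (log2 difference 0.38, SE 0.15, limma, adjusted p = 0.146). With the dimmer 1418633_at it read 98.9 and 122 in the AV junction, against 263 and 149.9 in the ventricular region (log2 difference −0.64, SE 0.27, limma, adjusted p = 0.159). Neither passed, both had arrays that did not overlap, and the second rested much on ventricular array 1a, without which the log2 difference was −0.32. Which probe set of Notch1 or Notch2 reads the transcript more truly was not tested. The part of the high 3′ to 5′ ratios, given above, in these splits was not tested either.

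Notch3, the receptor of mural and smooth muscle cells, read 728 and 556 in the AV junction with 1421965_s_at, against 475 and 465 in the ventricular region. The difference leaned on AV array 1a: the log2 difference of 0.40 (SE 0.16, limma, adjusted p = 0.135) was 0.22 without it and 0.58 when only AV array 1b was dropped. Its second probe set, 1421964_at, was too dim to be tested at 80.4 and 118 in the AV junction, against 88.5 and 103 in the ventricular region. Mural and smooth muscle markers went both ways on these arrays. Of 7 tested 1 was higher and 2 were lower, and they summed to 14729 to 15977 on AV arrays against 17531 to 18477 on ventricular arrays.

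Notch4, an endothelial receptor, read 139 and 157 in the AV junction with 1456263_at, against 165 and 181 in the ventricular region, a log2 difference of −0.17 (SE 0.21, limma, adjusted p = 0.604). With 1449146_at all 4 readings were under background, at 49.9 and 13.7 in the AV junction and 92.5 and 95.6 in the ventricular region. Endothelial and endocardial markers, which share cells with Notch1 and Notch4, summed to 5634 to 6234 on AV arrays against 4537 to 4890 on ventricular arrays, with 2 of 11 tested higher and 1 lower. Tek and Nfatc1 were the higher ones and Robo4 the lower. The defining markers Pecam1 and Tie1 were under background on all 4 arrays, while the brightest of the list, Tek and Npr3, were above it on all 4.

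**Figure D2:**
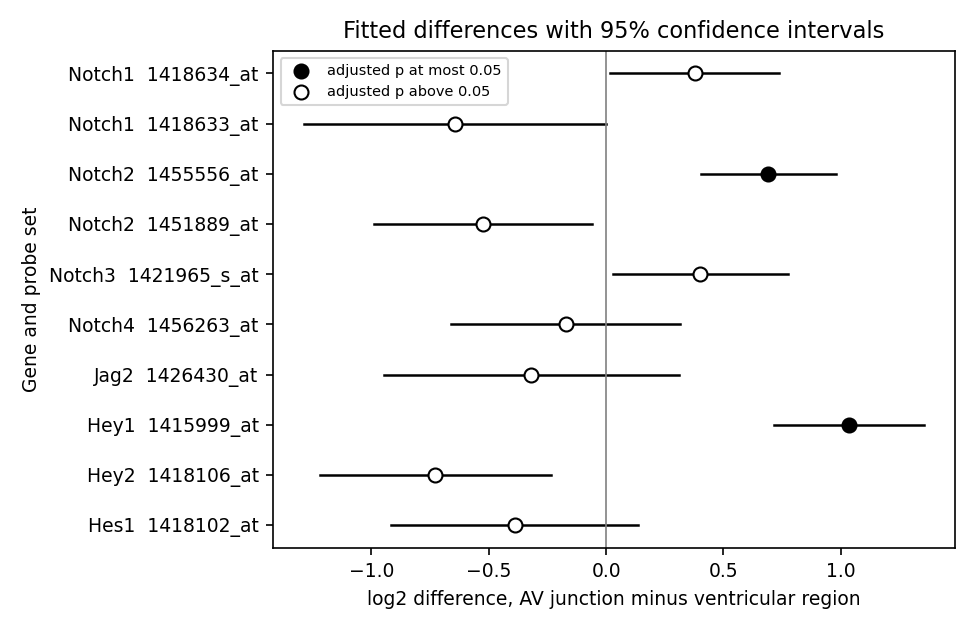
Fitted log2 difference, AV junction minus ventricular region, of the 10 Notch probe sets tested, with 95% confidence intervals from limma over 4 arrays. Filled circles passed at an adjusted p of at most 0.05 (Hey1 at 1.03 and Notch2 1455556_at at 0.69), and the 2 probe sets of Notch1 and of Notch2 lie on opposite sides of 0.

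The ligands gave little signal. Jag2 was the only ligand bright enough to test, and its arrays overlapped between the regions. It read 164 and 308 in the AV junction with 1426430_at, against 257 and 337 in the ventricular region (log2 difference −0.32, 95% confidence interval −0.95 to 0.31, limma, adjusted p = 0.452). The sign turned to 0.05 without AV array 1a. Its second probe set, 1426431_at, had 1 reading of 4 above background, 73.7 on AV array 1b.

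Jag1, a ligand with known roles in endocardium and outflow tract, was near background on both probe sets. It read 86.1 and 45.6 in the AV junction with 1421105_at, against 63.0 and 107 in the ventricular region, and 57.0 and 97.2 with 1421106_at, against 89.8 and 7.04. Of each region 1 array was above background with the first probe set, and 1 AV array with the second. The spread within a region was as wide as the range between regions, so a difference in Jag1 was not detectable at this signal.

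Dll4, the Delta ligand of arterial endothelium and of endocardium, read 68.4 and 59.0 in the AV junction with 1421827_at, against 79.8 and 57.4 in the ventricular region. The AV readings were just above the lower background of those arrays and the ventricular readings under theirs. With 1421826_at all 4 arrays were under background, between 16.8 and 24.5. Neither Jag1 nor Dll4 is shown by these readings to be absent, since a probe set under background gives only an upper bound.

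The sign of a Notch probe set went with its brightness. The 4 probe sets with positive log2 differences had the 4 highest mean intensities of the 10, and the 6 dimmer ones were all negative. Over all probe sets tested, split into 5 bins of equal size by mean intensity, the median log2 difference was −0.21 in the dimmest bin and −0.14 in the next, where those 6 lie, −0.06 in the middle bin and 0.04 and 0.02 in the brighter bins. Of the 6, Hey2, at −0.73, and the dimmer Notch1 probe set, at −0.64, lay furthest below the medians of their bins, and Notch4, at −0.17, lay above its own. Background itself was higher on the ventricular arrays, as given above, and its part in these dim values was not tested.

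**Figure D3:**
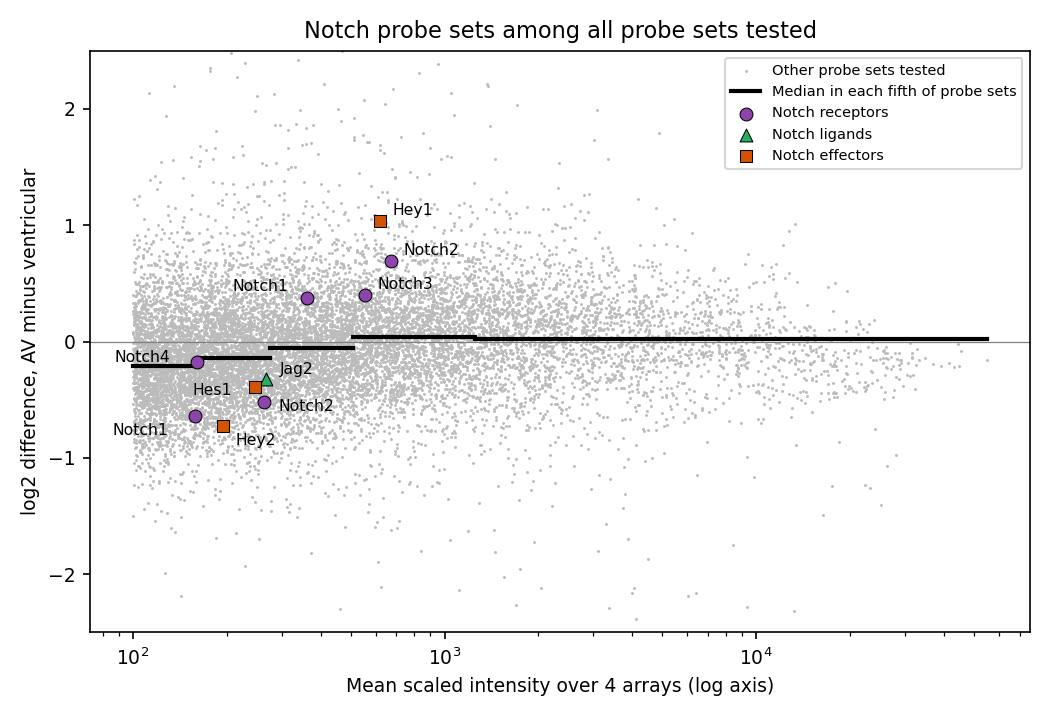
Log2 difference, AV junction minus ventricular region, against mean scaled intensity (log axis) for the probe sets tested, with those of Notch receptors, ligands and effectors marked and 20 probe sets beyond ±2.5 not drawn. Black lines are medians in 5 bins of equal size, at −0.21 in the dimmest, and the 4 brightest Notch probe sets are the 4 above 0.

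By distance between centred log2 profiles over the 4 arrays, the probe sets most like Hey1 were those of Ppp3ca, a calcineurin subunit, Fgfr2, a fibroblast growth factor receptor, and Gng11, a G protein subunit (distances 0.05, 0.05 and 0.06). Their log2 differences were 1.02, 1.04 and 1.07. Most like the brighter Notch2 probe set were Tcta, Sos2 and Spon1 (0.02, 0.03 and 0.03), with log2 differences of 0.68, 0.68 and 0.71. Most like Jag2 were 1700017B05Rik, Ptpn14 and Rad54l (0.06, 0.07 and 0.07), which did not separate the regions either. With 4 arrays in 2 regions many genes share such a profile, and the likeness is a description only.

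Across the rest of the pathway, most genes did not pass. Of 67 probe sets of 52 genes tested, 9 were higher in the AV junction (13.4%) and 1 lower (1.49%), against 7.24% and 6.58% of all probe sets tested. Over all probe sets both shares rose with intensity, from 0.90% higher and 1.83% lower in the dimmest bin to 15.3% and 12.9% in the brightest. The median log2 difference was 0.04, against −0.07 over all. The higher genes spread over the steps of the pathway, with 2 in receptor cleavage, 1 in the nuclear complex, 1 co-repressor, 2 in receptor turnover and 3 among targets and partners. Those 3, Bmp2, Tbx2 and Nfatc1, were also counted among the markers above (AV canal muscle for Bmp2 and Tbx2, endocardium for Nfatc1). For these genes the pathway count is therefore not separate from the marker counts.

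In receptor cleavage, both ADAM proteases were higher and 1 gamma-secretase gene was lower, in a list of 11 probe sets with a median log2 difference of −0.10. Adam10, the main protease that sheds the Notch ectodomain after ligand binding, read 2978 and 2779 in the AV junction, against 1865 and 1702 in the ventricular region (log2 difference 0.68, limma, adjusted p = 0.00741, and 0.0567 without the variance trend). Its other probe sets were too dim to be tested and read lower in the AV junction. They gave 64.3 and 68.0 against 84.8 and 99.9, and 13.4 and 16.4 against 19.8 and 18.8. Adam17, a related sheddase, read 438 and 364 in the AV junction, against 195 and 179 in the ventricular region (0.92, limma, adjusted p = 0.016), while its second tested probe set gave 0.12 and did not pass. Aph1a, a subunit of gamma-secretase, was lower on 1 probe set at 338 and 389 in the AV junction, against 648 and 529.6 in the ventricular region (−0.62, limma, adjusted p = 0.042), and its others gave −0.30 and −0.25. On 3 arrays the adjusted p of Aph1a was 0.073 to 0.194 whichever array was dropped, and that of Adam17 was up to 0.0848, passing only when AV array 1b was the one dropped.

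In the nucleus, the DNA-binding partner and most cofactors did not pass. Rbpj gave log2 differences of 0.38 and −0.55 on its 2 probe sets, again positive on the brighter one (limma, adjusted p = 0.145 and 0.0645). Maml1, a Mastermind co-activator, read 1167 and 1196 in the AV junction, against 750.3 and 554 in the ventricular region (0.82, limma, adjusted p = 0.0153), and its dimmer probe set gave −0.10. The brightest genes of the list, Snw1 and Kat2b, both co-activators, gave −0.04 and 0.06 on their brighter probe sets. Among co-repressors Tle3, a Groucho protein that Hes factors recruit, read 619.9 and 578 in the AV junction, against 181 and 230.1 in the ventricular region (1.35, limma, adjusted p = 0.00329), the largest change of the nuclear lists. Its other probe sets were too dim to be tested and their arrays overlapped. They gave 66.3 and 80.4 against 96.6 and 34.2, and 73.7 and 32.8 against 26.5 and 67.7. Of the other 8 co-repressor genes tested 0 passed, and the brightest, Ctbp1 and Hdac1, gave 0.31 and 0.16. When single arrays were dropped, the adjusted p of Tle3 stayed between 0.011 and 0.022, while Maml1 passed only without ventricular array 1a and otherwise had adjusted p-values of up to 0.0621.

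Across ligands other than the members, ligand handling and receptor glycosylation, and the other Hes and Hey repressors, 0 of 17 probe sets passed. Over all probe sets tested 13.8% did. Most of the 17 lay in the dimmest bin of intensity or the next. In those bins 0.90% and 2.57% of probe sets were higher, and 1.83% and 3.81% lower. Dll1 and Rfng crossed the threshold under some alternatives. Dll1, a Delta ligand, had the lowest adjusted p of its list (223 and 276 in the AV junction, against 490 and 372 in the ventricular region, log2 difference −0.68, limma, adjusted p = 0.056). Rfng, a Fringe glycosyltransferase, gave −0.37 and −1.01 on its 2 probe sets (limma, adjusted p = 0.0673 and 0.0504), and Poglut1, which adds glucose to Notch, gave 0.42. Dlk2, a non-canonical ligand, gave −0.32 and 0.05. Heyl, the closest relative of Hey1 and Hey2, read 214 and 251 in the AV junction, against 207 and 205 in the ventricular region (0.14, limma, adjusted p = 0.635), and Hes6 gave −0.14. The list medians were −0.32 for the ligands, −0.12 for ligand handling and glycosylation and 0.14 for the Hes and Hey genes.

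Among genes of receptor turnover and inhibition, Dtx2, a Deltex ubiquitin ligase, and Fbxw7, which marks the Notch intracellular domain for destruction, were higher. Dtx2 read 1995 and 2190.0 in the AV junction, against 1067 and 1412 in the ventricular region (log2 difference 0.74, limma, adjusted p = 0.0173). Its other probe set was too dim to be tested and overlapped, at 81.4 and 27.5 against 29.2 and 31.2. Fbxw7 read 453 and 430.4 in the AV junction, against 273 and 260 in the ventricular region (0.64, limma, adjusted p = 0.0341), with −0.04 on its second probe set. On 3 arrays Fbxw7 missed whichever array was dropped, at adjusted p-values of 0.0954 to 0.126, and Dtx2 missed without AV array 1b and without ventricular array 1a, at up to 0.0724. Nrarp, a feedback inhibitor that Notch itself induces, read 524 and 675 in the AV junction, against 719 and 440 in the ventricular region, where the arrays overlapped.

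**Figure D4:**
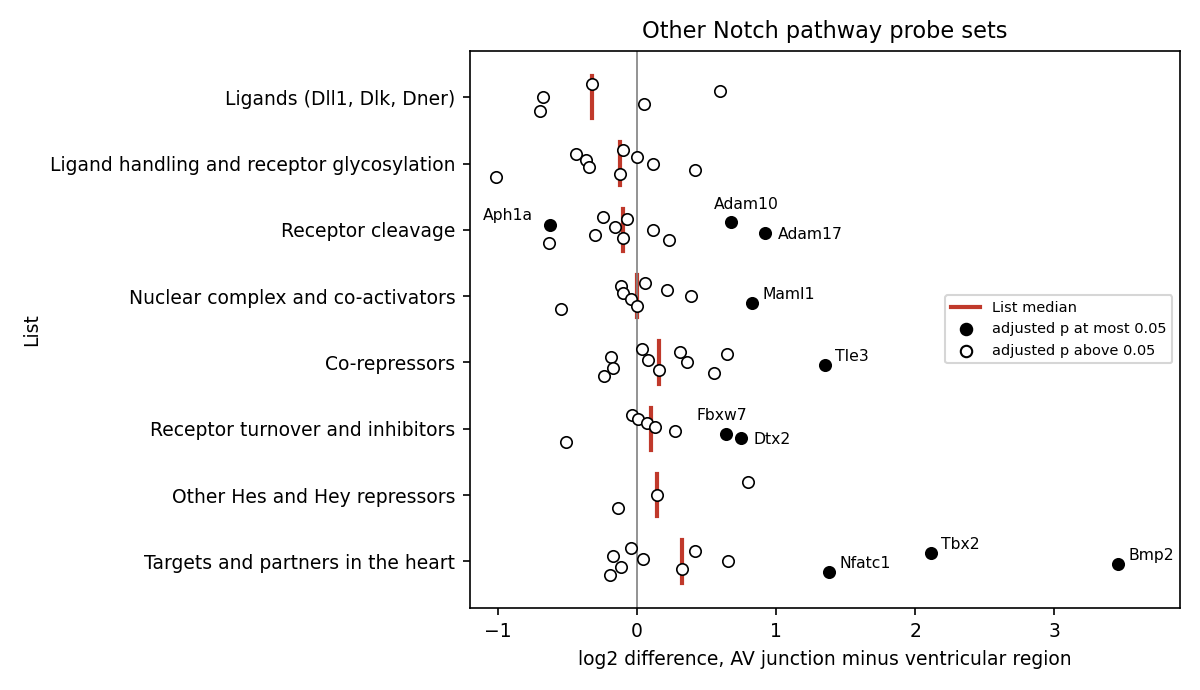
Log2 difference, AV junction minus ventricular region, of each tested probe set of the other Notch pathway genes, by list. Filled points passed at an adjusted p of at most 0.05 and are named, and red bars are list medians, from −0.32 for the ligands to 0.32 for targets and partners in the heart.

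Of the pathway lists, the AV canal genes that Hey1 and Hey2 are known to repress in the chambers differed most. Bmp2, the growth factor of AV muscle, read 1766 and 1431 in the AV junction, against 139 and 67.4 in the ventricular region, with 1 of the 2 ventricular arrays above background (log2 difference 3.46, limma, adjusted p = 0.00038). With the ventricular level near background the size depends on the pseudocount, at 4.02 with a pseudocount of 1 and 2.57 with 200. Tbx2, a T-box repressor of the chamber programme, read 423 and 451 in the AV junction, against 70.4 and 55.7 in the ventricular region. Both ventricular readings were under background, so Tbx2 was at least 4.32-fold higher (limma, adjusted p = 0.00116). Nfatc1, the transcription factor of cushion endocardium, read 381 and 465 in the AV junction, against 154 and 111 in the ventricular region (1.38, limma, adjusted p = 0.00682), and its second probe set gave 0.41 and did not pass. Hey1, Bmp2 and Tbx2 were higher in the same dissected tissue, where the arrays do not tell which cells carried each transcript. Other genes tied to Notch in the heart did not pass. They included Efnb2, an arterial ephrin, at 0.32 and −0.17, and Snai2 and Snai1, factors of the change to mesenchyme, at 0.66 and 0.04.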

How the data were processed

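The members and gene lists were chosen with earlier results of these data known, and the atrial marker list was added after the values were seen. The authors deposited 1 linear intensity per probe set and array, computed with MAS5, per the submitters' processing notes. A version and detection calls are not given in the sources used here. Per the file headers, the 4 arrays share a chip lot and a day, which therefore do not separate the regions, and each used a fluidics module of its own. Each region was 1 pool, so pool and amplification cannot be told apart from region.

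Intensities were multiplied, array by array, to bring the mean after trimming 2% at each end to 500. Of 22690 probe sets 64 were controls, and 20380 of the rest carry 1 gene symbol in the platform annotation. Probe sets averaging 100 or more were tested on log2(intensity + 50) with limma 3.58.1 in R 4.3.3 (lmFit, eBayes with trend), with region as the only term and 4 arrays, whose number limits the precision. The smallest two-sided p that exact permutation of these arrays allows is 0.333. The fit was tested on simulated data with the same noise for all probe sets, so that test cannot judge the variance trend. "At least" folds set the mean log2 of the brighter region against that of the brightest Bacillus control. The text names all member probe sets, pathway genes that passed, the 2 brightest genes of lists where fewer than 2 passed, and the 3 nearest profiles. Rbpj, Nrarp, Efnb2, Snai1 and Snai2 were named after their values were seen. Promoters are from RefSeq, GRCm38.p6. Alternatives changed the normalisation (quantile, median), the pseudocount (1, 200), the filter (none, 300), the variance trend, the replicate letter as a block, and the arrays used.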

Additional observations from a re-analysis of the deposited data

How the results depend on the processing

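Over the 10 Notch probe sets and the alternatives tried, 109 of 114 values kept their sign and their side of the threshold. The 5 others were Notch2 1455556_at on 3 arrays (given above), Hey2, which passed with the replicate letter as a block (limma, adjusted p = 0.0431), and the sign of Jag2 1426430_at, which ran from −0.69 to 0.053 with 1 array dropped. The Notch count of 2 higher became 1 to 2 with an array dropped, and the count of 0 lower became 1 with the replicate block. Arrays of the same letter did not deviate together (r = 0.06 across 13403 probe sets, which are not replicates), so the letters are not taken as pairs. Over all probe sets the block gave 1344 higher and 1375 lower, and 4 lower among the other pathway probe sets, Dll1 (limma, adjusted p = 0.0356) and the dimmer Rfng probe set (0.0411) among them.

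Median scaling moved the median of all log2 differences to 0.09 from −0.07 and gave 1714 higher and 459 lower, 78.9% of calls higher against 52.4%. It left 0 pathway probe sets lower (Aph1a, adjusted p = 0.0804), and Ctbp1 (0.0287) and Poglut1 (0.0473) passed as higher. No filter gave 580 and 431 over all, and Adam17 (0.051), Dtx2 (0.0512), Fbxw7 (0.0744) and Aph1a (0.0893) missed. The limma fit by eBayes without trend gave 326 and 343, with 5 pathway probe sets higher, and Adam10 (0.0567), Fbxw7 (0.057), Maml1 (0.0636), Dtx2 (0.0754) and Aph1a (0.0835) missed, while the dimmer Rfng probe set passed as lower (0.0496). Pathway probe sets lower numbered 2 with a pseudocount of 200, with the dimmer Rfng probe set added (0.042), and 3 with a floor of 300, with Dll1 (0.0452) and the brighter Rfng probe set (0.048) added. With an array dropped, the counts over all lay between 404 and 507 higher and between 261 and 501 lower, and the pathway had 6 higher and 0 lower each time.

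Of the 36 other pathway probe sets of genes named in the text, signs turned for 11, none of which passed. The remaining pathway probe sets were not followed one by one. With quantile normalisation Kat2b gave −0.018, Maml1 1452188_at 0.024 and Fbxw7 1424986_s_at 0.087. With median scaling Maml1 1452188_at gave 0.059, Snw1 1429002_at 0.12, Hes6 0.021 and Fbxw7 1424986_s_at 0.12. With an array dropped the log2 differences ran from −0.013 to 0.32 for Hdac1, −0.019 to 0.11 for Dlk2 1420807_a_at, −0.25 to 0.048 for Maml1 1452188_at, −0.14 to 0.055 for Snw1 1429002_at, −0.40 to 0.64 for Adam17 1421859_at, −0.096 to 0.026 for Fbxw7 1424986_s_at, −0.48 to 0.13 for Efnb2 1419638_at, −0.25 to 0.40 for Nrarp and −0.27 to 0.35 for Snai1. The causes were not tested. Jag1 and Dll4 read near or under background and did not enter the test.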
